A study of Mus musculus with 16 samples.

Results

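The 5p mature strands of miR-10a, miR-10b, miR-99a, miR-99b, miR-100, miR-125a and miR-125b were followed through the miRNA cargo of mouse lung lavage vesicles. They were chosen by name, as the miR-10, miR-99 and miR-100 family together with the miR-125 miRNAs encoded beside its members, and are 7 of the 1907 mature miRNAs in the deposited table. Extracellular vesicles, the membrane particles that cells release, were isolated from bronchoalveolar lavage fluid, and their small RNA was sequenced. The 16 libraries formed 4 groups of 4, which crossed 2 genotypes of C57BL/6 mice with 2 conditions. Wild-type animals carried the strain label C57BL/6-wildtype and knockout animals the label C57BL/6-Sdc1-/-, which lack syndecan-1, a heparan sulfate proteoglycan of epithelial surfaces. The condition was either Normal, in which animals received PBS, or Bleomycin-injured, in which they received bleomycin, a drug used to injure the lung and model fibrosis, for 21 days. The labels give neither age nor sex and do not say that each library came from a different animal, so p-values here reflect no more than library-to-library spread. Sdc1 mRNA was not measured by this assay, so the genotype labels were not checked.

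A miRNA guides its silencing complex to messenger RNAs mainly through its seed, the bases near its 5′ end, so miRNAs with the same seed share many targets. miR-10a and miR-10b are encoded inside the Hox gene clusters and silence Hox transcripts among others. miR-99a, miR-99b and miR-100 have a seed related to that of miR-10 but not the same, and Mtor and Igf1r are among their known targets. The miR-125 miRNAs are relatives of worm lin-4, and in mammals Lin28 is a known target. An arrangement of miR-99 or miR-100, let-7 and miR-125 within a stretch of the same strand is old in animal evolution.

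The mature sequences are shown because the 7 miRNAs fall into 3 seed groups, and because members of a group differ by so few bases that the results depend on telling them apart. All sequences and mature coordinates are those of RefSeq on GRCm38.p6, all 7 members matched by name, and the seed, bases 2 to 8 from the 5′ end, is in capitals. The prefix mmu-, which marks mouse miRNAs, is left out after these lines.
mmu-miR-10a-5p: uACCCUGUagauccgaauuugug
mmu-miR-10b-5p: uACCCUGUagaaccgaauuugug
mmu-miR-99a-5p: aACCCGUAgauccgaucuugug
mmu-miR-99b-5p: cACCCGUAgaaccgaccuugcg
mmu-miR-100-5p: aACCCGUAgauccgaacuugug
mmu-miR-125a-5p: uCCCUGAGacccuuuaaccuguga
mmu-miR-125b-5p: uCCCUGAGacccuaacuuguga

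With positions counted from 1 at the 5′ end, and the base of the first-named miRNA written first, miR-10a-5p and miR-10b-5p differ only by U12A. miR-99a-5p and miR-100-5p differ only by U16A. miR-99a-5p and miR-99b-5p differ by A1C, U11A, U16C and U21C. miR-125a-5p and miR-125b-5p share their first 13 bases. How the counting treated mismatched reads is not given in the sources used here, so a part of the reads of miR-10a-5p and miR-10b-5p, and of miR-99a-5p and miR-100-5p, could have been assigned to the other member of the pair. This was not tested.

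The genes lie at 8 places. miR-10a-5p is at chr11:96317186-96317208 on the plus strand, in no annotated host transcript of the GENCODE annotation of GRCm38. miR-10b-5p is at chr2:74726074-74726096 on the plus strand, within Hoxd3 and Hoxd4 and outside their exons. miR-99a-5p (chr16:77598940-77598961) and a copy of miR-125b-5p (chr16:77646279-77646300) lie on the plus strand of Mir99ahg, a long noncoding host gene, with the let-7c-1 hairpin 721 bases from the start of the miR-99a hairpin and the miR-125b-2 hairpin 47337 bases from it. miR-99b-5p (chr17:17830194-17830215) and miR-125a-5p (chr17:17830817-17830840) lie on the plus strand of Spaca6, where the hairpins of let-7e and miR-125a start 164 and 624 bases from that of miR-99b. The miR-125a hairpin overlaps an annotated Spaca6 exon. miR-100-5p (chr9:41531437-41531458) and the other copy of miR-125b-5p (chr9:41581940-41581961) lie on the plus strand of the gene 3110039I08Rik, with the let-7a-2 and miR-125b-1 hairpins 5291 and 50501 bases from that of miR-100. The mature sequence of miR-125b-5p is the same at both loci, so its value is a sum over them. Its hairpins overlap an exon of C130023A14Rik on chromosome 16 and of Gm28119 on chromosome 9.

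Values are CPM, reads of a miRNA scaled to the same total in every library, so each is a share of the reads of its library and says nothing of amounts in the lavage fluid. A lower share can follow from fewer vesicles of a cell type, from less of the miRNA per vesicle or from more reads of other miRNAs. These cannot be told apart. With miR-21a-5p, an abundant miRNA, left out of the totals, the bleomycin effects over all tested miRNAs rose by a median of 0.35 in wild type and 0.37 in knockout (log2). Depth ran from 1094908 to 12837837 reads, and the member with the fewest reads in any library, miR-10b-5p in normal wild-type library 1, still had 651 reads. Mean depth was 5344427 reads for wild-type and 9366221 for knockout libraries of the normal condition, and 4118013 and 5004907 after bleomycin. Normal wild-type libraries 1 and 2 and normal knockout library 2, at 1094908, 2556707 and 2753095 reads, stood apart from the 5 other normal libraries, which had at least 8663688. These 3 libraries also stood apart in some member levels, so member results that change call without them, or move by over 1.5 times in a bleomycin comparison within a genotype, are given both ways. The miRNAs defining epithelial cells were present in all libraries, with the 7 listed markers, among them the miR-200 family, summing to between 17398 and 98883 CPM. The mean sum was 84462 CPM in normal and 36086 CPM in bleomycin libraries of wild type, and 55522 and 45238 CPM in those of knockout. With bleomycin 4 of the 7 were called down by limma in wild type, 1 in knockout and 4 averaged, and 0 up. Of all tested miRNAs, 14.5%, 8.62% and 22.2% were called down and 20%, 14.8% and 23.7% up, in the same order. The 4 in wild type were miR-200a-3p (-2.68), miR-141-3p (-2.06), miR-205-5p (-3.50) and miR-375-3p (-3.12, log2 fold changes). In knockout these 4 were at -1.19, -1.39, -2.20 and -1.50. The others of the list, miR-200b-3p, miR-200c-3p and miR-429-3p, were at -0.02, -0.18 and -0.43 in wild type. In knockout they were at 0.64, 0.22 and 0.66, and none of them passed in either genotype, so the list did not move as a whole. Averaged over the genotypes, miR-10a-5p and miR-125a-5p were called down as well. The part of epithelial vesicles in the members' changes was not tested. Of the other cell-type markers, miR-144-3p, an erythrocyte miRNA, was at 0 in at least 1 library of 3 groups, and no other listed marker was at 0.

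The 7 miRNAs held a share of reads that was lowest in bleomycin knockout. In normal libraries their summed share was 6.92% ± 2.68 (SD, n = 4) for wild type and 5.26% ± 0.968 for knockout, and after bleomycin it was 5.14% ± 1.96 and 2.77% ± 0.518. With miR-21a-5p left out of the totals, wild type was at 7.22% ± 2.87 in normal and 6.86% ± 2.59 in bleomycin libraries. Knockout was then at 5.48% ± 1.05 and 3.82% ± 0.956, in the same order. miR-10a-5p was the most abundant of the 7 in every library and took, as group means, 76.4% ± 3.69 of the 7 for wild type and 63.6% ± 7.10 for knockout in the normal condition, and 54.1% ± 8.91 and 54.3% ± 7.70 after bleomycin (SD, n = 4 each). Its share of the 7 was lowest in bleomycin wild-type library 2 (43.2%) and bleomycin knockout library 2 (44.9%). It ranked between 2 and 15 among all miRNAs of a library. No p was computed for this sum.

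**Figure D1:**
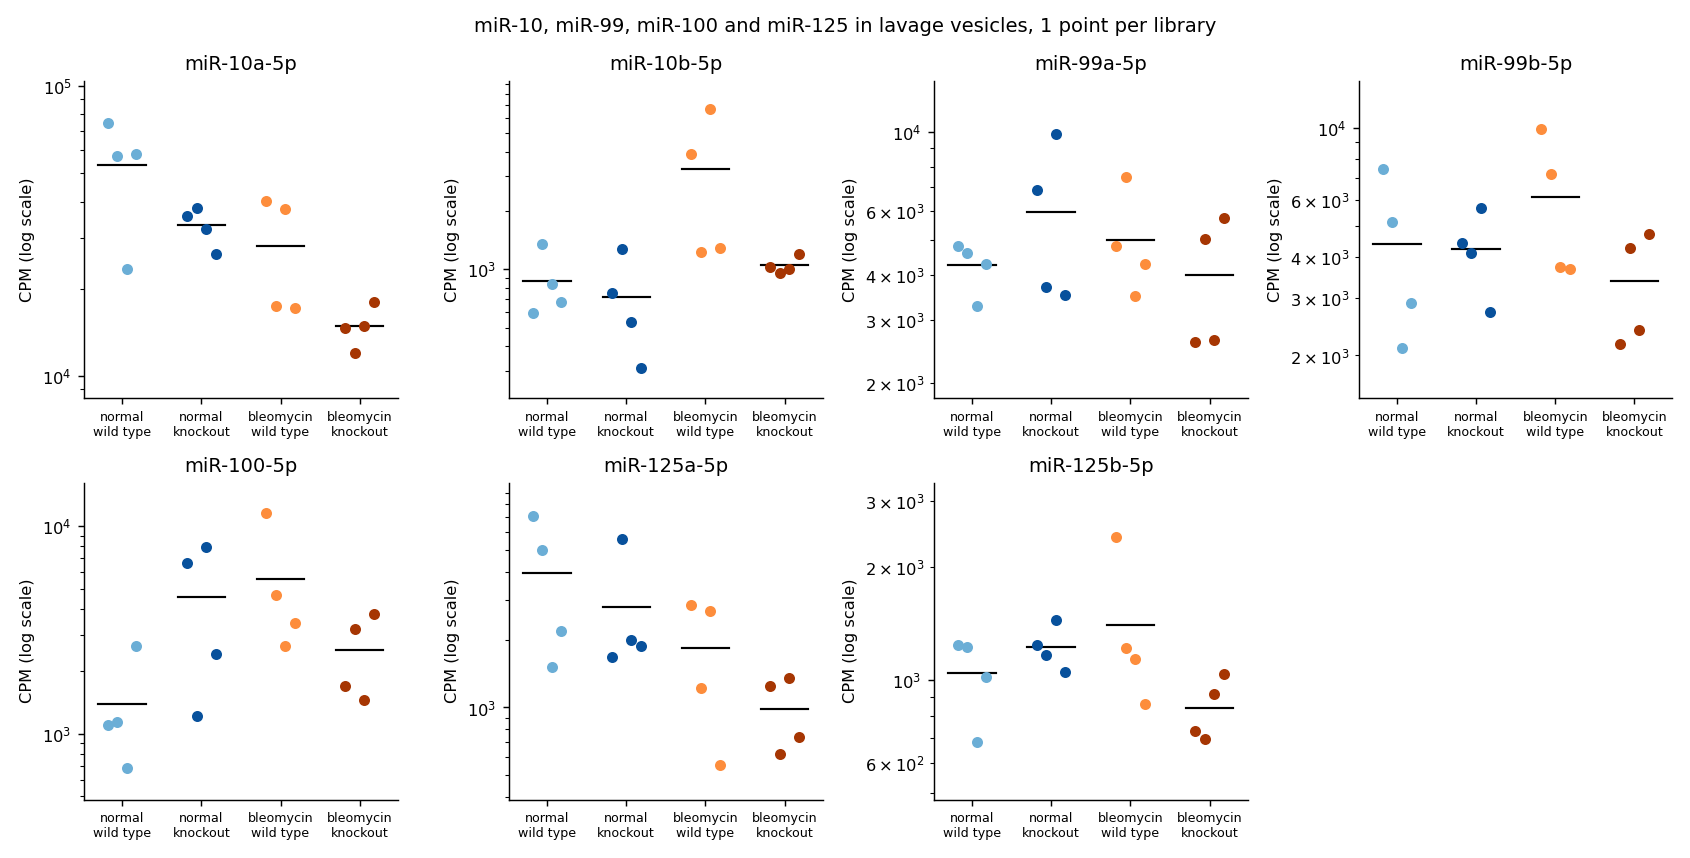
Level of each of the 7 miRNAs in CPM (vertical axis, log scale, a separate range in each panel) in the 4 groups (horizontal axis); each point is a library, in order of its number, and the bar is the arithmetic mean of 4. miR-10a-5p was lower in every bleomycin knockout library than in any normal one, and miR-10b-5p was highest in bleomycin wild-type libraries 1 and 3.

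The miR-10 pair, which differ by a base outside the seed, moved in opposite directions with bleomycin. miR-10a-5p fell, on average over the genotypes by 1.04 on the log2 scale, and miR-10b-5p rose by 1.16. That rise was 0.66 without bleomycin wild-type libraries 1 and 3, and then did not pass (limma adjusted p = 0.0955). The ratio of miR-10a-5p to miR-10b-5p was lower in all 8 bleomycin libraries than in the 8 normal ones, whatever the genotype.

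miR-10a-5p measured 74344, 57403, 23379 and 58218 CPM in normal wild-type libraries 1 to 4, and 35653, 37994, 32270 and 26467 CPM in normal knockout libraries. It measured 40179, 17521, 37760 and 17119 CPM in bleomycin wild type, and 14647, 12010, 14909 and 18074 CPM in bleomycin knockout. All 4 bleomycin knockout libraries were below all 4 normal knockout libraries, whereas in wild type bleomycin libraries 1 and 3 lay above normal library 3. The mean in normal wild type was 53336 ± 21441 CPM and in bleomycin wild type 28145 ± 12539 CPM (SD, n = 4). In knockout the means were 33096 ± 5005 and 14910 ± 2483 CPM, in the same order.

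The 325 miRNAs reaching 10 CPM in 4 or more libraries were fitted together with limma on log2(CPM + 5), and a call is a Benjamini-Hochberg adjusted p under 0.05 over the 325. miR-10a-5p fell in knockout, with a limma estimate of -1.15 in log2 fold change (SE 0.37, adjusted p = 0.0301). In wild type its log2 fold change was -0.92 (95% interval -1.69 to -0.14) and did not pass (limma adjusted p = 0.0621). It passed in 5 of 28 alternative settings. These were without normal library 3 (-1.28, limma adjusted p = 0.0108), without bleomycin library 1 or 3 (-1.13 and -1.10, limma adjusted p = 0.033 and 0.0305), without both of these (-1.50, limma adjusted p = 0.00735), and with log2 reads as a covariate (-0.93, limma adjusted p = 0.0316). Without the 3 normal libraries of lowest depth it was -0.51 (limma adjusted p = 0.430). Averaged over the genotypes it fell by 1.04 (SE 0.26, limma adjusted p = 0.00389), and this call held in all 27 alternative settings, with adjusted p between 0.000417 and 0.0447. The call in knockout alone held in 18 of 28 settings. It was lost, at an adjusted p between 0.0557 and 0.0814, without normal knockout library 1, 2 or 3 or without bleomycin knockout library 1, 2 or 3. It was also lost with edgeR on the recovered reads (-1.06, adjusted p = 0.0633) and with CPM computed without miR-21a-5p (-0.76, adjusted p = 0.123), an abundant miRNA. With no filter on low values, or without the 3 normal libraries of lowest depth, its limma adjusted p was 0.0731 and 0.0544.

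miR-10b-5p, far less abundant, measured 595, 1352, 836 and 679 CPM in normal wild type and 756, 1268, 535 and 310 CPM in normal knockout. It measured 3911, 1224, 6632 and 1281 CPM in bleomycin wild type, and 1026, 952, 1003 and 1196 CPM in bleomycin knockout. Bleomycin wild-type libraries 1 and 3 were the highest of all 16, while libraries 2 and 4 lay within the normal range. The bleomycin knockout libraries kept close together, at 1044 ± 106 CPM (SD, n = 4), and overlapped the normal knockout libraries.

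miR-10b-5p rose in wild type, with a limma estimate of 1.61 in log2 fold change (SE 0.53, adjusted p = 0.0243), from 865 ± 339 to 3262 ± 2573 CPM (SD, n = 4). In knockout the log2 fold change was 0.71 (95% interval -0.40 to 1.83, limma adjusted p = 0.337). Averaged over the genotypes it rose by 1.16 (SE 0.37, limma adjusted p = 0.0178). The rise rested on bleomycin wild-type libraries 1 and 3, without which the log2 fold change was 0.60 in wild type (limma adjusted p = 0.356) and 0.66 averaged (limma adjusted p = 0.0955). Leaving out bleomycin wild-type library 1 or 3 alone, or normal wild-type library 1 or 4 alone, also lost the call in wild type, at limma adjusted p of 0.0701, 0.0714, 0.0729 and 0.057. So did leaving out the 3 normal libraries of lowest depth (1.74, limma adjusted p = 0.0603), fitting only the 8 wild-type libraries (0.0615) and testing with no filter (0.0877). With no filter the averaged call was lost too (limma adjusted p = 0.0575). In bleomycin wild-type library 3 the summed leukocyte markers (833 CPM) and erythrocyte markers (6108 CPM) were the highest of all 16 libraries, but in library 1 they were 253 and 362 CPM, within the range of the normal libraries. Their part in the rise of miR-10b-5p was not tested.

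The ratio of miR-10a-5p to miR-10b-5p within a library does not depend on the library total. It was 125.04, 42.5, 28.0 and 85.7 in normal wild-type libraries 1 to 4, and 47.1, 29.97, 60.3 and 85.4 in normal knockout. In bleomycin wild type it was 10.3, 14.3, 5.69 and 13.4, and in bleomycin knockout 14.3, 12.6, 14.9 and 15.1. All 8 bleomycin libraries lay below all 8 normal libraries, with the nearest values at 15.1 and 28.0.

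Over both genotypes the log2 ratio, of CPM + 5, was 5.79 in normal and 3.59 in bleomycin libraries, a difference of -2.20, or a fold of 0.218. With arrangements of the libraries drawn within each genotype, the two-sided exact permutation p was 0.000408, the smallest that the 4900 arrangements can give. Adjusted over the 36 tests of 6 ratios in 6 comparisons it was 0.0147. The ratios were chosen with earlier results of these data known, which the adjustment does not cover. In wild type alone the difference was -2.53 and in knockout alone -1.87, each with an exact permutation p of 0.0286, the smallest that 4 against 4 allows, and an adjusted p of 0.171. Leaving out any single library kept the averaged difference between -2.38 and -2.02. Without the 3 normal libraries of lowest depth it was -2.19, and without bleomycin wild-type libraries 1 and 3 it was -1.99. Each of these had an exact permutation p of 0.0019 and an adjusted p of 0.0686. For the first, 0.0019 is the smallest p that its 525 arrangements can give.

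**Figure D2:**
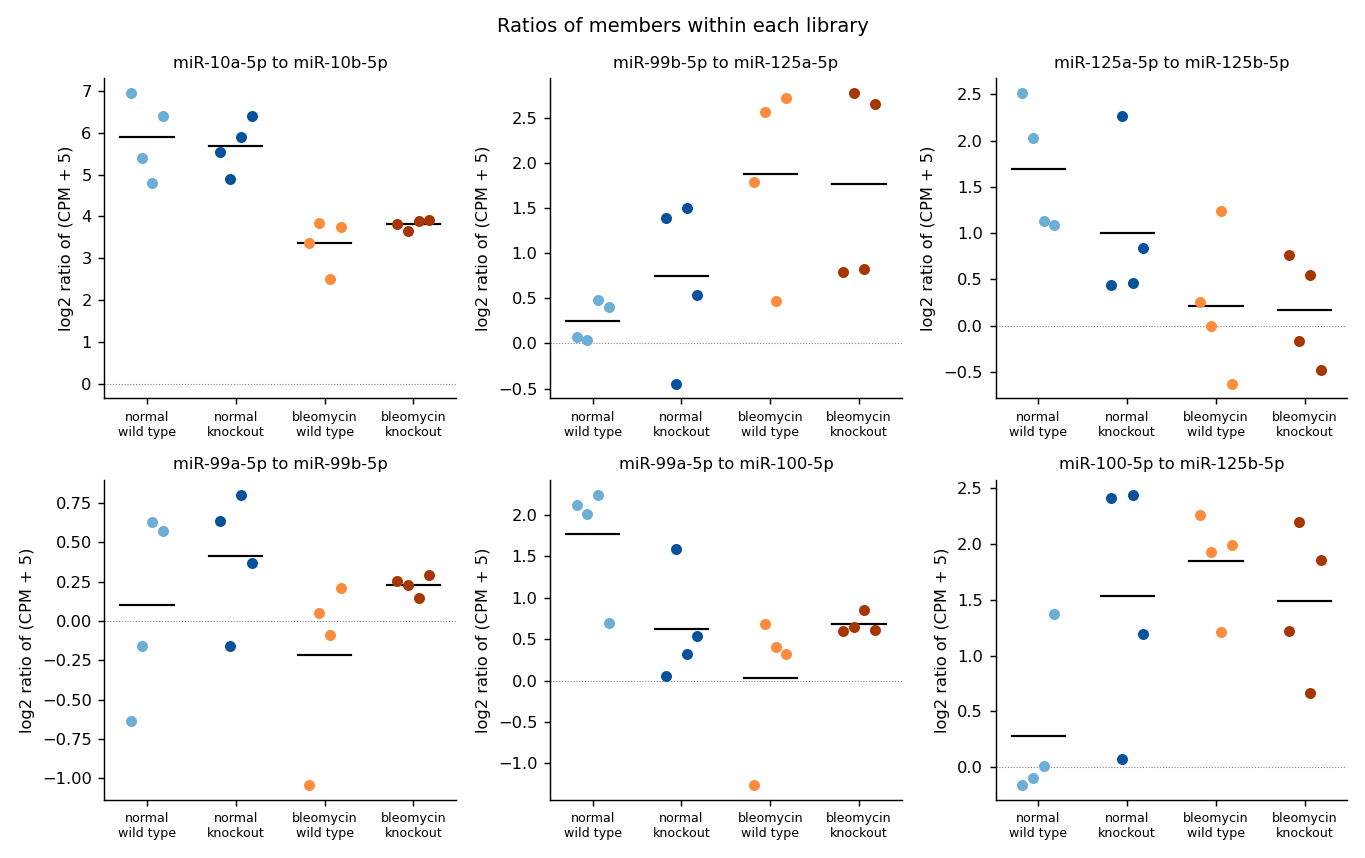
Log2 ratio of CPM + 5 between pairs of the 7 miRNAs within each library (vertical axis) by group (horizontal axis); each point is a library, the bar is the mean of 4, and the dotted line marks equal levels. The ratio of miR-10a-5p to miR-10b-5p separated all 8 bleomycin libraries from all 8 normal ones, and the other ratios overlapped between the pooled conditions.

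Among the opposite arms of the miR-10 hairpins, miR-10b-3p had 1 to 7 reads in each normal library (0.0779 to 0.913 CPM) and 4 to 19 in each bleomycin library (0.897 to 8.62 CPM). It was highest in bleomycin wild-type library 3. miR-10a-3p was between 2.18 and 11.6 CPM in normal and between 3.33 and 8.99 CPM in bleomycin libraries. Neither arm reached the level needed for testing.

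miR-99a-5p, miR-99b-5p and miR-100-5p share a seed, and of the 3 only miR-100-5p passed a test. It rose with bleomycin in wild type, by 1.92 on the log2 scale. Neither miR-99a-5p nor miR-99b-5p passed the test in any of the 7 comparisons.

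miR-100-5p measured 1108, 1143, 689 and 2657 CPM in normal wild type, and 11534, 4661, 2638 and 3433 CPM in bleomycin wild type. In knockout it measured 6609, 1224, 7908 and 2416 CPM in normal libraries and 1708, 3203, 1459 and 3770 CPM in bleomycin libraries. In wild type 3 of 4 bleomycin libraries were above all normal ones, and library 3 was just below normal library 4. In knockout the bleomycin libraries lay between the lowest and highest normal ones.

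The wild-type means of miR-100-5p were 1399 ± 863 and 5567 ± 4065 CPM (SD, n = 4), with a limma estimate of 1.92 in log2 fold change (SE 0.60, adjusted p = 0.0224). The call was lost without the 3 normal libraries of lowest depth (1.79, limma adjusted p = 0.0851). It was also lost without normal wild-type library 1, 2 or 3 or bleomycin wild-type library 1 alone, at limma adjusted p of 0.0527, 0.0506, 0.0634 and 0.0714. With no filter the limma adjusted p was 0.0766, and without bleomycin wild-type libraries 1 and 3 it was 0.0688. In knockout the log2 fold change was -0.59 (95% interval -1.86 to 0.68, limma adjusted p = 0.528), and -1.10 without the 3 normal libraries of lowest depth (limma adjusted p = 0.215). In limma the bleomycin effect in knockout minus that in wild type was -2.51 (SE 0.85), which did not pass (unadjusted p = 0.00857, limma adjusted p = 0.623).

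The libraries highest in miR-100-5p were also those highest in miR-126a, the miRNA encoded within the endothelial gene Egfl7. No correlation over all libraries is given for them. miR-126a-3p and miR-126a-5p summed to between 342 and 1228 CPM in the wild-type and between 407 and 3648 CPM in the knockout libraries of the normal condition. After bleomycin the sums were between 1068 and 3151 CPM for wild type and between 977 and 2203 CPM for knockout. The 3 libraries with the highest sums, normal knockout libraries 1 and 3 and bleomycin wild-type library 1, were also the 3 highest for miR-100-5p. With bleomycin in wild type miR-126a-3p rose by 1.96 on the log2 scale (SE 0.64, limma adjusted p = 0.0237), while miR-126a-5p was at 0.11 (SE 0.57, limma adjusted p = 0.912). Of the 5 listed mesenchymal markers, 3 rose in wild type without overlap, beside 21.8% of all miRNAs tested without overlap in either direction. These 3 were miR-199a-5p by 3.39 (SE 0.45, limma adjusted p = 3.87e-05), miR-199a-3p by 2.14 (SE 0.56, limma adjusted p = 0.00812) and miR-214-3p by 2.34 (SE 0.44, limma adjusted p = 0.00064). In normal libraries their estimates for knockout minus wild type were 1.46, 1.71 and 1.03, and their interactions -1.48, -1.52 and -1.54, none of which passed by limma. miR-143-3p and miR-145a-5p, the others of that list, were at -0.54 and -0.78 in wild type and did not pass. The summed list was between 36374 and 82520 CPM in normal and between 36136 and 52140 CPM in bleomycin libraries of wild type, and between 21553 and 142493 CPM and between 39341 and 46754 CPM in those of knockout. The part of endothelial or mesenchymal vesicles in the rise of miR-100-5p was not tested.

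In normal libraries miR-99a-5p ranged from 3275 to 4807 CPM for wild type and from 3510 to 9881 CPM for knockout, and after bleomycin from 3498 to 7461 and from 2592 to 5766 CPM. Its log2 fold change with bleomycin was 0.20 in wild type (95% interval -0.65 to 1.04) and -0.54 in knockout (-1.38 to 0.31). miR-99b-5p ranged from 2116 to 7463, 2719 to 5662, 3695 to 9920 and 2172 to 4704 CPM in the same order of groups. Its log2 fold changes were 0.52 in wild type (95% interval -0.43 to 1.47) and -0.36 in knockout (-1.31 to 0.59). Without the 3 normal libraries of lowest depth, those in wild type were 0.36 for miR-99a-5p and 1.18 for miR-99b-5p (limma adjusted p = 0.629 and 0.115). All groups overlapped for both miRNAs in each comparison of 2 groups.

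The log2 ratio of miR-99a-5p to miR-100-5p, which differ by a base, was 2.11, 2.002, 2.24 and 0.69 in normal wild type and -1.26, 0.68, 0.41 and 0.32 in bleomycin wild type. The groups did not overlap, although normal library 4 and bleomycin library 2 were nearly equal. The difference was -1.73, with an exact permutation p of 0.0286 and an adjusted p of 0.171. In knockout it was 0.05 (exact permutation p = 0.914, adjusted p = 0.968).

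The miR-125 pair share a seed and the bases that follow it. miR-125a-5p was lower with bleomycin over both genotypes by 1.25 on the log2 scale, a call that depended on the 3 normal libraries of lowest depth. miR-125b-5p did not pass in any comparison.

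miR-125a-5p measured 7116, 4984, 1508 and 2185 CPM in normal wild type and 1682, 5609, 1991 and 1878 CPM in normal knockout. It measured 2867, 1217, 2694 and 556 CPM in bleomycin wild type, and 1248, 619, 1345 and 741 CPM in bleomycin knockout. In knockout every bleomycin library was below every normal library, and in wild type bleomycin libraries 1 and 3 were above normal libraries 3 and 4. The 3 normal libraries of lowest depth were the 3 highest of all 16.

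The log2 fold change of miR-125a-5p was -1.12 in wild type (SE 0.58, limma adjusted p = 0.152) and -1.37 in knockout (SE 0.58, limma adjusted p = 0.111), and neither passed. Averaged over the genotypes it fell by 1.25 (SE 0.41, limma adjusted p = 0.0212). In the 3 normal libraries of lowest depth it was between 4984 and 7116 CPM, and in the 5 deeper ones between 1508 and 2185 CPM. The log2 difference, deeper minus shallower, was -1.67, against a median of -0.08 over the 325 miRNAs. Without those 3 libraries the log2 fold change was -0.26 in wild type, -0.97 in knockout and -0.62 averaged (limma adjusted p = 0.784, 0.203 and 0.234). Without bleomycin wild-type libraries 1 and 3 it was -1.99 in wild type and passed (limma adjusted p = 0.0257). With no filter on low values the averaged call was lost (limma adjusted p = 0.0688). In knockout alone it passed with median-of-ratios scaling (-1.52, limma adjusted p = 0.0387) and in a fit of those 8 libraries (-1.37, limma adjusted p = 0.0414). With log2 reads as a covariate it passed in both genotypes, at -1.16 in wild type (limma adjusted p = 0.0192) and -1.93 in knockout (limma adjusted p = 0.00105). With CPM computed without miR-21a-5p the averaged value was -0.87 and did not pass (limma adjusted p = 0.0793). The part of depth in this result was not tested further.

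Of the other members, miR-100-5p differed the other way in normal libraries, by 1.36 in mean log2(CPM + 5), deeper minus shallower. The same differences were -0.77 for miR-10b-5p, -0.71 for miR-10a-5p, -0.69 for miR-99b-5p, 0.23 for miR-99a-5p and -0.19 for miR-125b-5p. The sets overlapped for miR-100-5p, at 689 to 7908 CPM in the 5 deeper and 1108 to 1224 CPM in the 3 shallower libraries. They also differed in their mix of genotypes, so depth and genotype are not separated here.

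**Figure D3:**
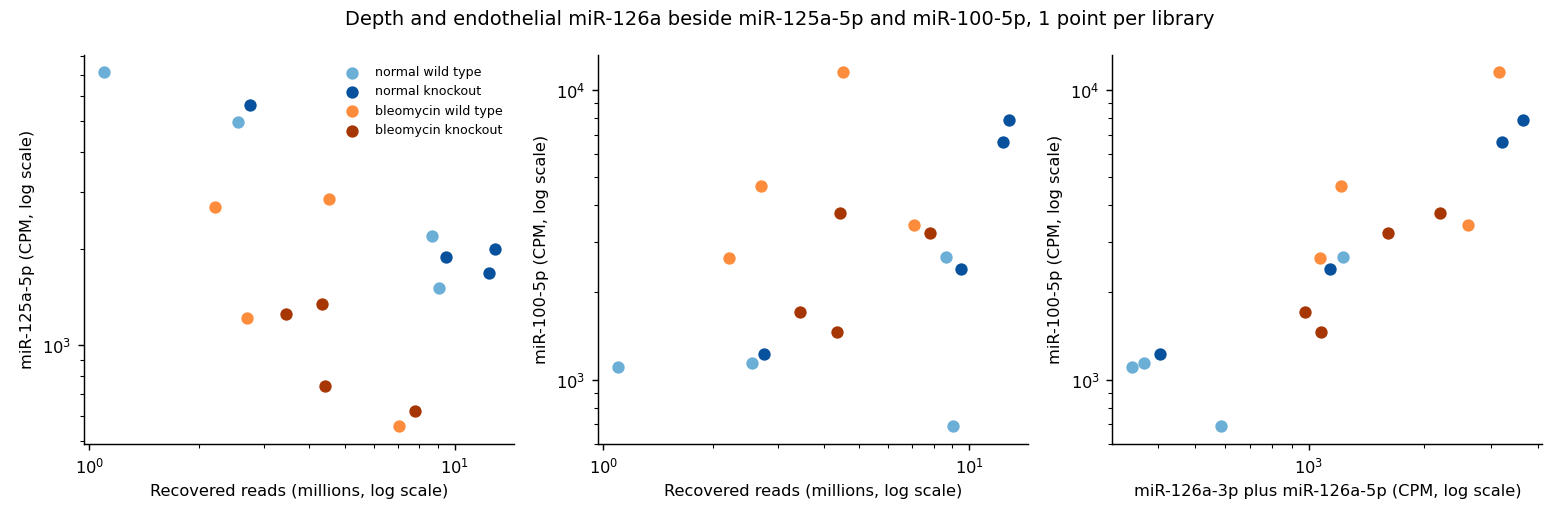
Levels of miR-125a-5p and miR-100-5p in CPM (vertical axes, log scale) against the recovered reads of the library (left and middle, log scale) and of miR-100-5p against the summed CPM of miR-126a-3p and miR-126a-5p (right, log scale); each point is a library, coloured by group as in the key. The 3 normal libraries with the fewest reads had the highest miR-125a-5p, between 4984 and 7116 CPM, and the 3 libraries highest in miR-126a were the 3 highest in miR-100-5p.

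miR-125b-5p was within 685 to 1241 CPM for wild type and 1051 to 1449 CPM for knockout in normal libraries, and within 861 to 2402 and 694 to 1036 CPM after bleomycin. In knockout the bleomycin libraries lay below the normal ones without overlap, but the log2 fold change of -0.54 (95% interval -1.31 to 0.22) did not pass (limma adjusted p = 0.284). In wild type the log2 fold change was 0.36 (95% interval -0.41 to 1.12, limma adjusted p = 0.485), and 0.63 without the 3 normal libraries of lowest depth (limma adjusted p = 0.330). The log2 ratio of miR-125a-5p to miR-125b-5p differed by -1.15 over both genotypes, bleomycin minus normal (exact permutation p = 0.0106, adjusted p = 0.167), and did not pass the adjustment.

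Another carrier of the miR-125 seed fell much further. miR-351-5p, encoded on the X chromosome (chrX:53053315-53053338, minus strand), has the RefSeq sequence given here to show that it shares the seed and not the rest.
mmu-miR-351-5p: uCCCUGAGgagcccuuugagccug

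It was between 366 and 919 CPM in the 8 normal libraries and between 15.5 and 169 CPM in the 8 bleomycin libraries, with no overlap. The log2 fold change was -2.69 in wild type (SE 0.53, limma adjusted p = 0.000849) and -3.10 in knockout (SE 0.53, limma adjusted p = 0.000374). The remaining mouse miRNAs with that seed, miR-6367 and miR-6394, had no read in any library, and the RefSeq table held no further mouse miRNA with the seed of a member.

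Across the 7 members, bleomycin in wild type gave 2 calls up and 0 down, beside 34.5% of the 325 miRNAs called in either direction (20% up and 14.5% down). None of the 7 had groups without overlap, against 21.8% of all. The median log2 fold change was 0.36 for the members and -0.00 for all miRNAs tested. In knockout 1 member was called, down, beside 23.4% of all (8.62% down). The groups did not overlap for 3 of 7, all lower with bleomycin, against 30.8% of all (12.3% lower). The median was -0.54 for the members and 0.11 for all. Averaged over the genotypes 1 member was called up and 2 down, beside 45.8% of all (23.7% up and 22.2% down), with medians of -0.09 and 0.05. In each of the 3 comparisons the share of members called was no higher than that of the whole profile.

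**Figure D4:**
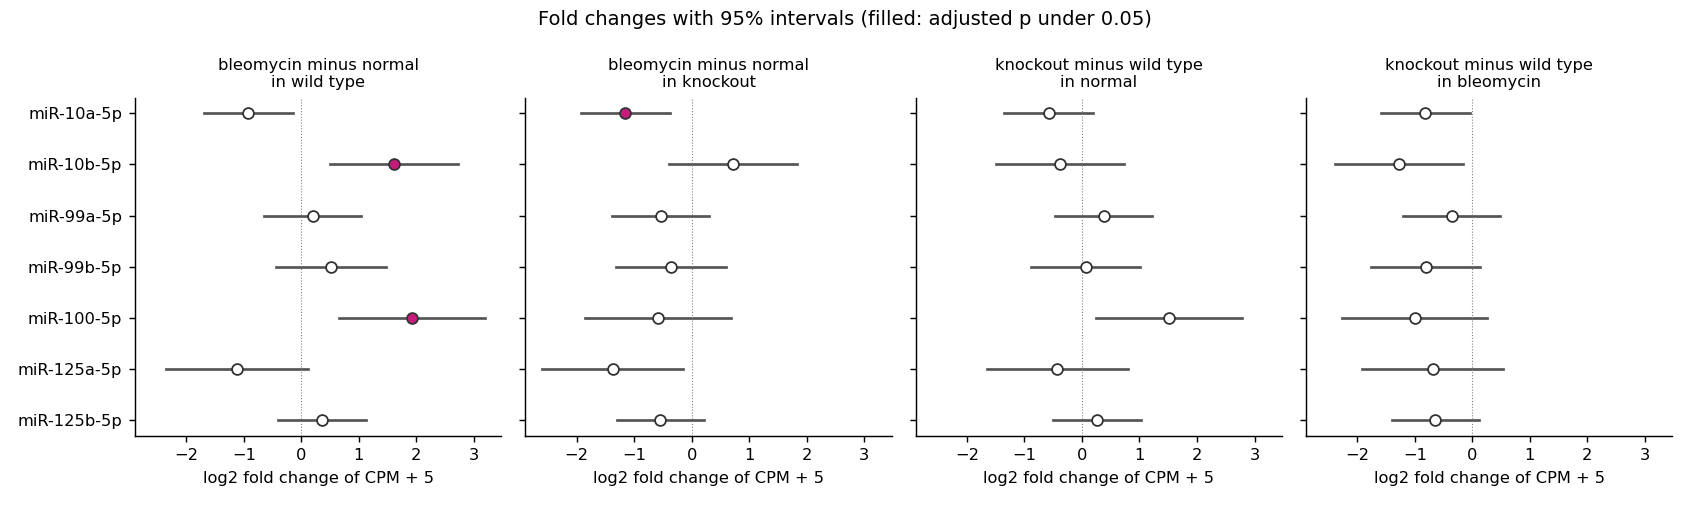
Log2 fold change of CPM + 5 (horizontal axis) of the 7 miRNAs (vertical axis) in the 4 comparisons of 2 groups; points are limma estimates from 4 libraries a group, lines are 95% intervals, and filled points have an adjusted p under 0.05. Only miR-10b-5p and miR-100-5p in wild type, both higher with bleomycin, and miR-10a-5p in knockout, lower, passed, and all 7 estimates for knockout minus wild type in bleomycin libraries were below 0.

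The levels of each member were also compared between the genotypes. In normal libraries no member was called by limma, none by edgeR, and 1 had an unadjusted p under 0.05, beside 0% called and 58 of 325 with an unadjusted p under 0.05. That member was miR-100-5p, at 1399 ± 863 CPM in wild type and 4539 ± 3221 in knockout (SD, n = 4), with a log2 fold change of 1.51 (95% interval 0.24 to 2.78, limma adjusted p = 0.259). The groups overlapped for all 7 members, and did not for 4% of all miRNAs tested. Without normal knockout library 2 it was 2.02 and passed (limma adjusted p = 0.0264), in a fit that called 64 of the 325 miRNAs, 38 up and 26 down, where 0 were called with that library.

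In bleomycin libraries all 7 estimates for knockout minus wild type were below 0, with a median log2 fold change of -0.81 against 0.04 for all miRNAs tested. No member was called by limma or by edgeR, beside 0.615% called over all, and 2 members and 28 of 325 miRNAs had an unadjusted p under 0.05. The members are shares of the same libraries and were measured together, so their common sign does not count as 7 observations. miR-10b-5p had groups that did not overlap, as did 5.23% of all, with a log2 fold change of -1.28 (95% interval -2.39 to -0.16, limma adjusted p = 0.537). miR-10a-5p was at -0.82 (95% interval -1.59 to -0.04, limma adjusted p = 0.540). The others were -1.002 for miR-100-5p, -0.81 for miR-99b-5p, -0.69 for miR-125a-5p, -0.64 for miR-125b-5p and -0.36 for miR-99a-5p. Without bleomycin wild-type libraries 1 and 3 that of miR-125a-5p was 0.19 and that of miR-10b-5p was -0.27.

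Averaged over the conditions, no member was called by limma or edgeR between the genotypes, beside 0% of all, with 2 members and 67 of 325 miRNAs at an unadjusted p under 0.05. These members were miR-10a-5p, at -0.70 (SE 0.26, limma adjusted p = 0.215), and miR-10b-5p, at -0.83 (SE 0.37, limma adjusted p = 0.227). Their ratio differed between the genotypes by 0.13 on the log2 scale (exact permutation p = 0.698, adjusted p = 0.811). Likewise no member was called for the interaction of bleomycin and genotype by limma or edgeR, beside 0% of all, with 1 member, miR-100-5p, and 24 of 325 miRNAs at an unadjusted p under 0.05.

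The miRNAs encoded beside the members gave a mixed picture. Of the 6 mature strands of let-7c-1, let-7e and let-7a-2 that lie between the members in the 3 clusters, 4 were abundant enough to test, and 0 of 4 passed by limma in any of the 7 comparisons. let-7c-5p and let-7a-5p are also made from other loci. In the miR-99b, let-7e and miR-125a cluster, whose hairpins start within 624 bases, miR-125a-5p was the only 5p strand called with bleomycin over both genotypes. The log2 ratio of miR-99b-5p to miR-125a-5p was between 0.04 and 0.49 in normal wild type and between 0.47 and 2.72 in bleomycin wild type. Over both genotypes it differed by 1.33, bleomycin minus normal (exact permutation p = 0.0139, adjusted p = 0.167), which did not pass the adjustment.

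Over the 16 libraries, after subtraction of group means, miR-99b-5p and let-7e-5p had a Pearson r of 0.78 in log2(CPM + 5), and miR-99b-5p and miR-125a-5p one of 0.38. miR-125a-5p and its opposite arm miR-125a-3p had r = 0.84, whereas miR-99b-5p and miR-99b-3p had r = -0.42. Among the members, r was 0.76 for miR-10a-5p and miR-125a-5p, 0.75 for miR-10a-5p and miR-125b-5p, 0.75 for miR-99b-5p and miR-125b-5p, 0.73 for miR-99a-5p and miR-100-5p, and 0.56 for miR-10a-5p and miR-10b-5p. These values describe libraries that also share their depth and total, and they carry no test.

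Of the 8 opposite arms, 4 were tested, and miR-125b-1-3p was the only call. This strand marks the chromosome 9 copy of miR-125b, which lies in the cluster of miR-100. It measured 17.4, 36.4, 15.2 and 53.9 CPM in normal wild type and 83.7, 51.8, 82.6 and 56.2 CPM in bleomycin wild type. All but bleomycin library 2 were above every normal library. It rose by 1.15 on the log2 scale in wild type (SE 0.36, limma adjusted p = 0.0223), and in knockout was at -0.15 (SE 0.36, limma adjusted p = 0.785). miR-125b-2-3p, the strand of the chromosome 16 copy, was at 0.00 (SE 0.42, limma adjusted p = 0.999) in wild type.

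By likeness over the 16 libraries, with group means subtracted and 179 other miRNAs of at least 50 CPM as candidates, miR-125a-5p was nearest to miR-423-3p (r = 0.97) and miR-1198-5p (r = 0.94). miR-100-5p was nearest to miR-27b-5p (r = 0.90) and miR-126b-5p (r = 0.87). miR-10a-5p was nearest to miR-128-3p and miR-222-3p, each with r = 0.82. For miR-10b-5p they were miR-127-3p (r = 0.79) and miR-150-5p (r = 0.76), the latter a lymphocyte miRNA among the listed leukocyte markers. For miR-99b-5p they were miR-7a-5p (r = 0.85) and miR-30c-2-3p (r = 0.84), for miR-99a-5p miR-26a-5p (r = 0.70) and miR-23b-3p (r = 0.68), and for miR-125b-5p miR-222-3p (r = 0.76) and let-7b-3p (r = 0.72). These are the highest of many candidates and share depth, so they too are descriptions without a test.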

How the data were processed

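Small RNA of lavage vesicles was sequenced in 16 libraries, 4 in each of 4 groups. The authors deposited CPM (reads scaled to a common total per library), per the file headers and per the column sums. The submitters' processing notes name Bowtie2 2.2.3 and GRCh38, a human build, without a role. The sources used here give no counter, adapter step or miRBase release. Every deposited value was a whole multiple of its library's step (100% within 0.001), which gave whole reads. These were between 1094908 and 12837837 per library, so a read was 0.0779 to 0.913 CPM.

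Groups came from sample titles. The fit, by limma 3.58.1 under R 4.3.3, took log2(CPM + 5) of the 325 miRNAs that reached 10 CPM in 4 or more libraries, as 4 group means with a trended variance (12 residual degrees of freedom), in 7 comparisons, with Benjamini-Hochberg adjustment over the 325 in each. Fold changes are of CPM + 5. For 6 within-library ratios, two-sided exact permutation tests were adjusted over 36 tests. The code was tested on simulated data. The count alternative was edgeR 4.0.16 on the recovered reads with TMM scaling. Other alternatives were pseudocounts of 1 and 20, no filter and a filter of 100 CPM, median-of-ratios scaling, totals without miR-21a-5p, only the 8 libraries compared, a replicate block, log2 reads as covariate, and leaving out each library or the 3 shallow normal ones. Chosen after seeing the data were fits and ratios without bleomycin wild-type libraries 1 and 3, and ratios without the 3 shallow normal libraries.

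The members, lists and ratios were chosen with earlier results of these data known. By rule the text names the 7 members, their opposite arms, the let-7 strands of their clusters, miRNAs sharing a seed, and for each member the 2 likest miRNAs. Sequences came from RefSeq (GRCm38.p6) and loci from GENCODE M21; the deposited table holds no coordinates.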

Additional observations from a re-analysis of the deposited data

Results flagged for a closer look

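Among 56 sets of 4 libraries (7 miRNA levels, 6 within-library ratios and the summed share in each group), 3 held a library farther from the others than Dixon's 95% limit for 4 values allows, and chance gives about 1 in 20.

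miR-125a-5p was at 5609 CPM in normal knockout library 2, with the other 3 libraries of that group between 1682 and 1991 CPM. That library had 2753095 reads and the others at least 9478786. The part of depth was not tested.

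In normal wild-type library 4 the log2 ratio of miR-99a-5p to miR-100-5p was 0.69, with the others between 2.002 and 2.24. The log2 ratio of miR-100-5p to miR-125b-5p in the same library was 1.37, with the others between -0.16 and 0.01. Both ratios contain miR-100-5p, which was at 2657 CPM there and at 1143 CPM or less in the other 3, so they are not separate observations. The summed miR-126a arms were also highest of that group in this library, at 1228 CPM against 342 to 587 CPM. Their part was not tested.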

How the results depend on the processing

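The numbers of members called were 2, 1 and 3 for bleomycin in wild type, in knockout and averaged. In wild type they became 0 with no filter, 1 in the fit of the 8 libraries compared, 4 with log2 reads as covariate and 0 without the 3 shallow normal libraries. Among all miRNAs tested, calls up and down in these settings were 59 and 31 of 1358, then 53 and 32, 68 and 64, and 41 and 26 of 325. In knockout they became 0 with no filter, with totals without miR-21a-5p, with edgeR and without the 3 shallow libraries, and 2 with median-of-ratios scaling, in the fit of 8 libraries and with log2 reads. In the settings giving 0, all calls up and down were 67 and 24 of 1358, 77 and 19 of 324, and 51 and 31 and 45 and 35 of 325. In those giving 2 they were 46 and 37, 56 and 34, and 54 and 60 of 325. Averaged, no filter left 1, beside 114 up and 52 down of all 1358. Leaving out a library gave 0 to 2 in wild type, 0 to 1 in knockout and 0 to 1 for genotype in normal libraries. Over all miRNAs the 100 CPM filter, which tests fewer, left 60, 38 and 81 calls for bleomycin in wild type, in knockout and averaged (112, 76 and 149 in the fit reported). Without the 3 shallow libraries 67 were called in wild type. For genotype in bleomycin libraries (2 in the fit reported) 0 were called with pseudocount 1, the 100 CPM filter, edgeR or 8 libraries, and 4 with no filter. The interaction (0) gave 2 with totals without miR-21a-5p, with log2 reads or without bleomycin wild-type libraries 1 and 3, and genotype averaged (0) gave 1 with pseudocount 20 or without the 3 shallow libraries. Leaving out a library gave 74 to 134 for bleomycin in wild type and 57 to 85 in knockout. For genotype it gave 0 to 64 in normal, 0 to 3 in bleomycin and 0 to 37 averaged, and for the interaction 0 to 2.

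Totals without miR-21a-5p raised the bleomycin effects by a median of 0.35 in wild type, 0.37 in knockout and 0.36 averaged (log2), and calls up and down became 85 and 34, 77 and 19, and 120 and 42 (65 and 47, 48 and 28, and 77 and 72 as reported). The mean share of the 7 became 7.22% in normal and 6.86% in bleomycin libraries of wild type, and 5.48% and 3.82% in those of knockout. Leaving miR-21a-5p out scales all other miRNAs of a library alike, so estimates relative to the median shift were bound to stay nearly the same. The calls of miR-10a-5p in knockout (-0.76, limma adjusted p = 0.123) and of miR-125a-5p averaged (-0.87, limma adjusted p = 0.0793) were lost. Median-of-ratios scaling moved the effects of bleomycin in knockout by a median of -0.14 and those of genotype in bleomycin libraries by -0.11, and edgeR moved the latter by -0.12.

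Estimates that changed sign were uncalled, and the cause was not tested. With totals without miR-21a-5p they were miR-99b-5p for bleomycin in knockout (0.032) and, averaged, miR-99a-5p (0.21) and miR-125b-5p (0.28). With edgeR they were miR-99b-5p for genotype in normal (-0.088) and miR-125b-5p averaged for bleomycin (0.10). With log2 reads they were miR-125a-5p for genotype in normal (0.36), miR-99b-5p averaged for bleomycin (-0.011) and, for genotype averaged, miR-99a-5p (-0.057) and miR-100-5p (-0.053). With median-of-ratios it was miR-99a-5p for genotype averaged (-0.016). Without the 3 shallow libraries they were miR-125a-5p for genotype in normal (0.024), miR-125b-5p averaged for bleomycin (0.035) and the ratio of miR-10a-5p to miR-10b-5p for genotype in normal (0.34). Without bleomycin wild-type libraries 1 and 3 they were miR-125a-5p for genotype in bleomycin (0.19), the interactions of miR-10a-5p (0.35), miR-10b-5p (0.11) and miR-125a-5p (0.62), miR-99a-5p for genotype averaged (-0.11), and the ratios of miR-10a-5p to miR-10b-5p (-0.085) and miR-99b-5p to miR-125a-5p (-0.19) for genotype averaged, miR-125a-5p to miR-125b-5p for genotype in bleomycin (0.48) and miR-99a-5p to miR-99b-5p for bleomycin in wild type (0.028). The averaged ratio of miR-10a-5p to miR-10b-5p was -2.19 and -1.99 under these last 2 settings.

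Leaving out a library, estimates that crossed 0 ranged as follows. miR-99a-5p ran from -0.014 to 0.35 for bleomycin in wild type and -0.14 to 0.11 for genotype averaged. miR-99b-5p ran from -0.23 to 0.37 for genotype in normal and -0.067 to 0.24 averaged for bleomycin, and miR-125b-5p there from -0.24 to 0.0057. The interactions ran from -0.43 to 0.12 for miR-10a-5p and -0.74 to 0.14 for miR-125a-5p. The ratio of miR-10a-5p to miR-10b-5p ran from -0.57 to 0.15 for genotype in normal and -0.055 to 0.30 averaged, and that of miR-99b-5p to miR-125a-5p from -0.59 to 0.20 in bleomycin and -0.048 to 0.39 averaged. For bleomycin in knockout the ratio of miR-99a-5p to miR-100-5p ran from -0.14 to 0.37 and that of miR-100-5p to miR-125b-5p from -0.53 to 0.26, and for genotype in bleomycin that of miR-125a-5p to miR-125b-5p from -0.33 to 0.29.

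Replicate numbers are shared between groups, and the sample titles do not say whether they pair the libraries. Of 24 same-numbered pairs of libraries, 9 had a correlation of deviations over 0.1 (range -0.63 to 0.80). Differently numbered pairs were not computed for comparison, so these values cannot decide whether the samples are paired. With a replicate block 2, 1 and 3 members were called for bleomycin in wild type, in knockout and averaged, and 0 of all miRNAs for genotype in bleomycin libraries. For bleomycin, calls up and down among all 325 miRNAs were then 60 and 45, 45 and 27, and 77 and 73, in the same order.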
